A study of Mus musculus with 12 samples.

Results

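The genes described here are 34 genes of glycolysis and lactate handling, taken as a fixed list: the glucose transporters, the enzymes from hexokinase to lactate dehydrogenase, the lactate transporters, and pyruvate dehydrogenase with its kinases. Gene identifiers were paired with symbols through the GENCODE annotation, and all 34 genes were found once among the 51467 genes counted. Of these, 33 passed the expression filter of at least 3 CPM (counts scaled to library size) in at least 3 libraries, as did 14731 genes in all. The exception was Pgam2, the muscle form of phosphoglycerate mutase, with 48, 71 and 34 reads in the 3 ESC total RNA libraries and 5, 9 and 11 in those of EpiLCs.

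The libraries compared mouse embryonic stem cells (ESCs) with epiblast like cells (EpiLCs), a culture model of the passage from the naive to the formative state of pluripotency. ESCs were kept in Knockout DMEM with fetal bovine serum, LIF and 2i, the MEK inhibitor PD0325901 with the GSK3 inhibitor CHIR99021, and EpiLCs were the same kind of cells about 56 h after LIF and 2i were withdrawn. Both were labelled with 500 µM 4-thiouridine (4sU) for 30 min, and each RNA extract was divided into a 4sU fraction, pulled down through biotin and holding nascent RNA, and an rRNA-depleted total RNA fraction. There were 4 groups of 3 libraries, numbered 1 to 3: ESC total, EpiLC total, ESC 4sU and EpiLC 4sU. The labels name no cell line. The study's methods give a miRNA-reporter line of ESCs for the differentiation, and its text calls the replicates biological, without saying how they were separated, so p-values measure the spread between these samples. ESCs and EpiLCs differed in medium as well as in cell type, and the effects of these cannot be told apart.

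Glycolysis turns glucose into pyruvate through a chain of cytosolic enzymes, several of which exist as isoenzymes encoded by separate genes. Pyruvate is either reduced to lactate by lactate dehydrogenase and exported through monocarboxylate transporters, or carried into mitochondria and oxidised by the pyruvate dehydrogenase complex, which its kinases switch off by phosphorylation. Flux is set mainly at glucose uptake, hexokinase, phosphofructokinase and pyruvate kinase, and the bifunctional PFKFB enzymes make or remove fructose 2,6-bisphosphate, the strongest activator of phosphofructokinase. Post-implantation epiblast cells are known for leaning more heavily on glycolysis than naive cells, which use both glycolysis and respiration.

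Several of these genes have many processed copies in the mouse genome, and the deposited counts hold only reads that mapped to a single place. For each gene, the 50-base windows of its principal transcript (GENCODE M21, mm10) were searched, letter for letter, in the transcripts of all other genes that do not overlap it. For 23 of the 34 genes at most 1.43% of windows occurred elsewhere. For 9 genes more than 15% did: Gapdh with 82.5%, Eno1 with 72.2%, Pgk1 with 68.0%, Pgam1 with 41.5%, Pkm with 30.5%, Pdhb with 30.3%, Ldhb with 27.0%, Gpi1 with 19.6% and Ldha with 17.1%. Aldoa with 13.9% and Tpi1 with 7.51% lay between. Shown here, in lower case and on the strand of the gene, are coding windows of 2 such genes, because a read with these letters cannot be counted for the gene. The Gapdh window, at chr6:125162898-125162947 on the minus strand, occurs in 84 other genes, and the Pgam1 window, at chr19:41915608-41915657 on the plus strand, in 2.
Gapdh: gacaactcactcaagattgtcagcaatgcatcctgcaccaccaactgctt
Pgam1: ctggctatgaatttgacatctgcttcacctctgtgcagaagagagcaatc

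The counted level of such genes is therefore a floor, also where levels are compared between genes. Gapdh, the glyceraldehyde-3-phosphate dehydrogenase often used as a loading control, kept only 68, 93 and 97 reads in the ESC total RNA libraries and 79, 98 and 72 in those of EpiLCs. A change between cell types within such a gene rests on the part of its transcript that stays unique. Of 15 named copies of the members in the annotation, 14 had at most 19 reads in any library, and the exception was Eno1b, a near-identical copy of Eno1, with 275 to 815 reads in ESC total RNA and 314 to 355 in EpiLC total RNA.

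**Figure D1:**
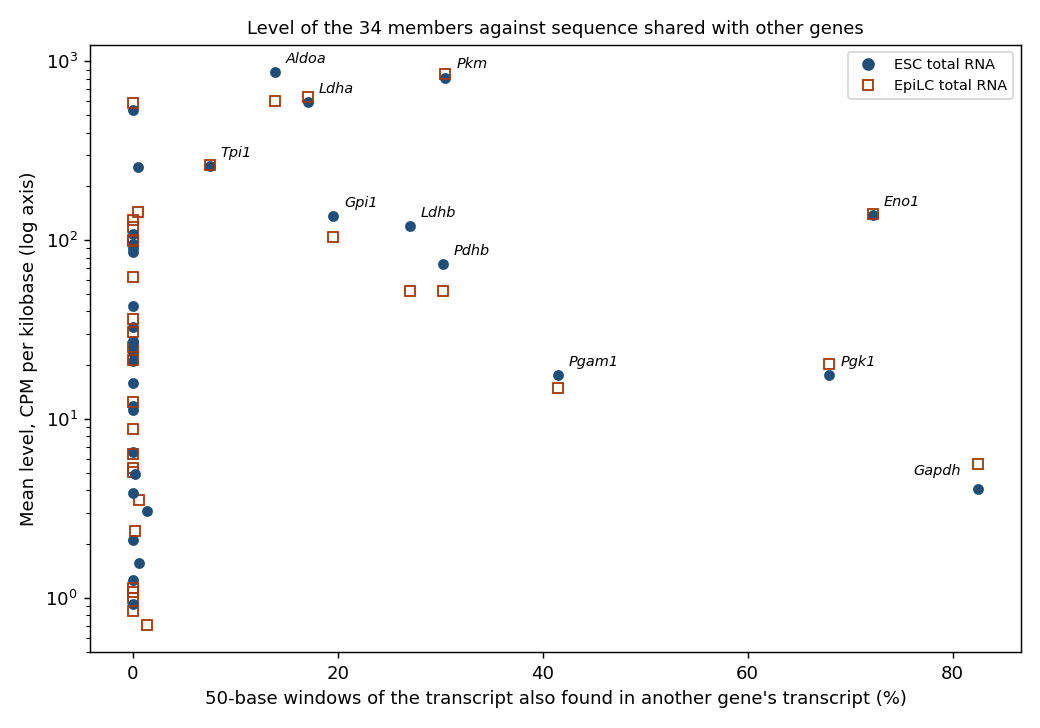
Mean level in total RNA (CPM per kilobase of exon, log axis, 3 libraries per group) of the 34 genes against the percentage of 50-base windows of the transcript found in another gene's transcript. Gapdh, at 82.5%, lay at 4.05 in ESCs and 5.63 in EpiLCs, while Pkm, at 30.5%, was still counted at 812 and 852.

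Total RNA libraries held 9300845 to 21975684 counted reads and 4sU libraries 3097693 to 5385644. The cell type labels held: all 7 naive markers were called lower and all 5 formative markers higher in EpiLCs. Summed fibroblast markers lay at 3.88 to 4.73 CPM in ESC total RNA and 14.6 to 18.9 CPM in EpiLC total RNA, where 2 of 7 were called higher and 2 had under 3 reads in every library. Summed primitive endoderm markers lay at 4.98 to 10.4 and 7.55 to 8.81 CPM. Summed mesendoderm markers lay at 17.1 to 28.1 and 20.2 to 30.9 CPM in total RNA, and at 20.9 to 28.3 and 43.2 to 96.1 CPM in 4sU RNA. Their part in the results below was not tested. In such bulk RNA, fewer cells that express a gene and less of its RNA per cell cannot be told apart.

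ESC replicate 3 stood apart on these genes. It was the lowest of the 3 ESC total RNA libraries in 25 of the 33 tested genes, against 43.8% of all genes, and the lowest of the 3 ESC 4sU libraries in 22 of 33, against 39.2%. It was the highest in 5 of 33 in total RNA, against 43.2% of all genes, and in 6 of 33 in 4sU RNA, against 37.0%. EpiLC total replicate 3 was the lowest of its group in 17 of 33, against 30.4%. The values of ESC replicate 3 are given beside the main results that rest on it, and several results were recomputed without both ESC replicate 3 libraries.

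The 34 genes took 1.09% ± 0.122 of counted reads in ESC total RNA and 1.103% ± 0.0266 in EpiLC total RNA (SD, n = 3). By library these shares were 1.169%, 1.158% and 0.953% in ESC replicates 1 to 3, and 1.101%, 1.131% and 1.078% in EpiLCs. ESC replicates 1 and 2 thus lay above every EpiLC library, and ESC replicate 3 lay below them all. The near equality of the means therefore rests on ESC replicate 3. In 4sU RNA the 34 genes took 0.315% ± 0.0426 in ESCs and 0.351% ± 0.0151 in EpiLCs. Between 59.7% and 61.9% of their total RNA reads in every library came from 4 genes, Slc2a3, Aldoa, Pkm and Ldha.

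The mRNA change was the log2 fold change of total RNA, EpiLC over ESC, and a gene was called at an adjusted p under 0.05 with a change over 1 on the log2 scale (limma-voom, all 12 libraries in one fit). The number of genes called higher was 3 of 33, or 9.09%, against 16.3% of all genes tested, and 6, or 18.2%, were called lower, against 11.2%. By adjusted p alone, 5 were higher, against a background of 31.4%, and 12 were lower, against 32.1%, while 16 did not pass. The median change was -0.005 for the 33 genes and 0.02 for all genes. Every EpiLC total RNA library lay above every ESC one for 4 genes, or 12.1%, against 33.5% of all genes, and below for 12, or 36.4%, against 35.1%. The share of genes that were higher was thus below the background and the share that were lower was near it by adjusted p alone and above it with the fold threshold. These are counts of related genes in the same libraries, and no test of the list was made.

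In nascent RNA, 2 genes were called higher, against 11.9% of all genes, and 5 were called lower, against 13.5%. By adjusted p alone 4 were higher, against 23.7%, and 8 were lower, against 28.8%. The median nascent change was 0.05 for these genes and -0.09 for all genes. Every EpiLC 4sU library lay above every ESC one for 7 genes, against 26.6% of all genes, and below for 9, against 34.1%. Pdk2, which passed the expression filter only through ESCs, is in the lower counts by call, by adjusted p and by overlap. Of the 17 genes past adjusted p in the mRNA change, 10 also passed in the nascent change, or 58.8%, all 10 in the same direction. Of all genes past adjusted p in the mRNA change, 67.4% also passed in the nascent change, and 98.6% of those went the same way. The nascent and total fractions came from the same extracts, so these are not independent cultures.

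**Figure D2:**
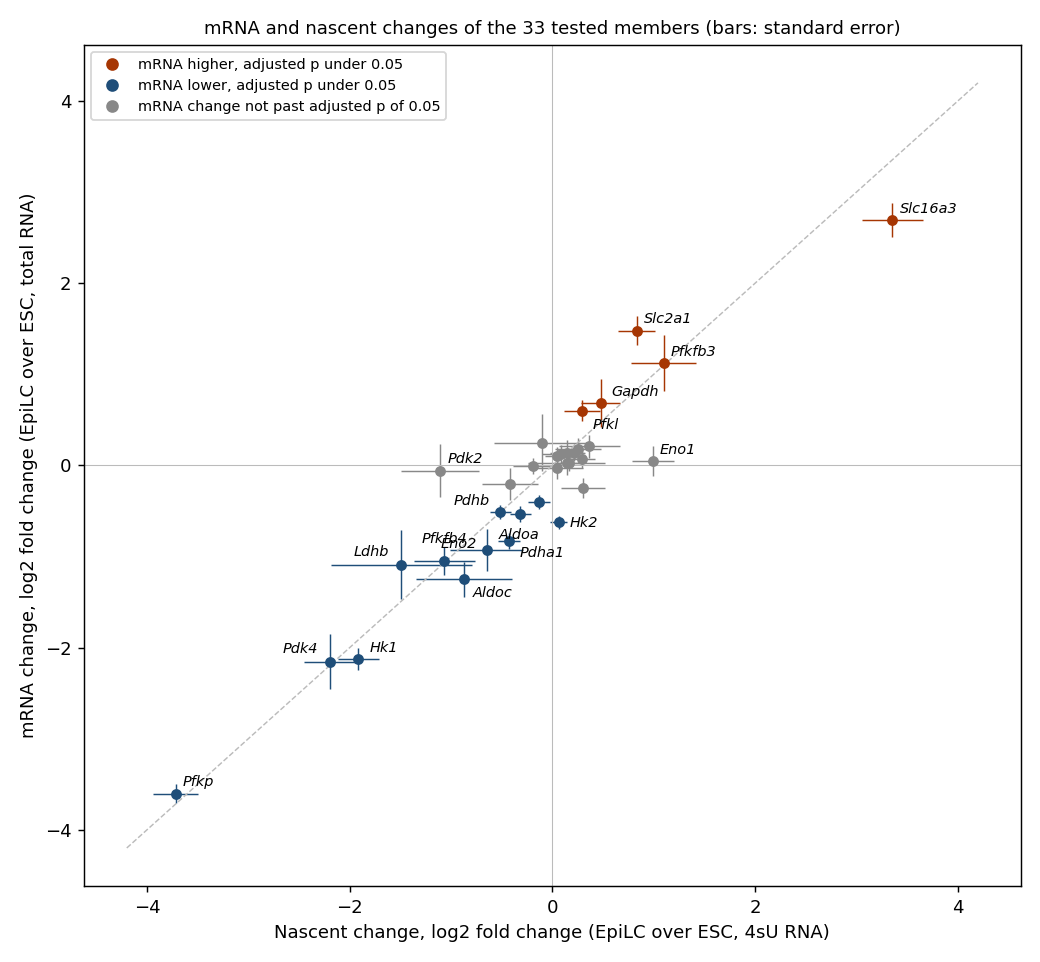
mRNA change (y axis) against nascent change (x axis) of the 33 tested genes, both log2 fold changes of EpiLC over ESC, with bars for the standard error and colours for the side of adjusted p of 0.05 in the mRNA change. Slc16a3, at 3.36 nascent and 2.69 mRNA, and Pfkp, at -3.72 and -3.603, lie at the ends, most genes lie near 0, and the dashed line marks equal changes.

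Glucose enters these cells through the facilitative transporters encoded by Slc2a1 (GLUT1) and Slc2a3 (GLUT3, of higher affinity). Slc2a1, at chr4:119108711-119137983, rose. Its total RNA level was 165, 148 and 106 CPM in ESC replicates 1 to 3 and 377, 397 and 388 CPM in EpiLCs, and its 4sU level was 166, 191 and 115 against 325, 263 and 247 CPM. The groups did not overlap in either fraction. The mRNA change was 1.48 ± 0.16 (log2, SE; adjusted p = 1.64e-06), a 2.79-fold rise, and the nascent change was 0.83 ± 0.18 (adjusted p = 0.00139). Without both ESC replicate 3 libraries the mRNA change was 1.31. Slc2a3 was the more abundant of the pair per length in every group, with 2344, 2217 and 1814 CPM in ESC and 2451, 2291 and 2232 CPM in EpiLC total RNA, and its mRNA change was 0.13 ± 0.15 (adjusted p = 0.45). These ranges overlapped.

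Of the hexokinases, which trap glucose as glucose 6-phosphate, both measured members were lower in EpiLC total RNA. Hk1, the widely expressed form, at chr10:62268855-62379908, lay at 103, 106 and 132 CPM in ESC total RNA and 27.7, 27.7 and 22.3 CPM in EpiLC total RNA. Its 4sU level went the same way, from 50.1, 45.45 and 42.3 CPM to 10.6, 14.2 and 11.6 CPM. The groups were far apart in both fractions. Hk1 fell by 2.13 ± 0.12 in mRNA (adjusted p = 1.61e-09) and by 1.91 ± 0.20 in nascent RNA (adjusted p = 2.94e-06).

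Hk2, the insulin- and hypoxia-inducible form, at chr6:82725025-82774454, differed from Hk1 in its nascent RNA. Its total RNA level was 577, 513 and 523 CPM in ESCs and 355, 345 and 347 CPM in EpiLCs, whereas its 4sU level was 265, 287 and 249 CPM in ESCs and 293, 263 and 281 CPM in EpiLCs. The total RNA groups stood apart and the 4sU groups overlapped. Hk2 fell by 0.62 ± 0.07 in mRNA (adjusted p = 2.71e-06), its nascent change was 0.06 ± 0.08 (adjusted p = 0.545), and the test of the difference of these, the stability change, gave -0.68 ± 0.11 (adjusted p = 0.00503). Gpi1, the isomerase that makes fructose 6-phosphate, was the most abundant of these 3 genes per length in total RNA. Gpi1 lay at 422, 408 and 358 CPM in ESC total RNA and 308, 311 and 282 CPM in EpiLC total RNA, and fell by 0.40 ± 0.08 (adjusted p = 0.000429), with a nascent change of -0.13 ± 0.10 (adjusted p = 0.305).

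Phosphofructokinase commits the sugar to glycolysis, and its 3 subunit genes moved apart. Pfkp, the platelet form, at chr13:6579768-6648777, showed the largest mRNA change of the 33 genes by size. Pfkp lay at 446, 428 and 514 CPM in ESC total RNA and 39.8, 39.3 and 34.6 CPM in EpiLC total RNA, and at 116, 106 and 86.8 CPM in ESC 4sU against 7.54, 7.42 and 8.31 CPM in EpiLC 4sU RNA. It fell by 3.603 ± 0.105 in mRNA (adjusted p = 4.67e-12), a 12.15-fold difference, and by 3.72 ± 0.22 in nascent RNA (adjusted p = 1.39e-08). The lowest ESC library was above the highest EpiLC library many times over in both fractions.

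Pfkl, the liver form, rose at the same time. It lay at 370, 345 and 252 CPM in ESC total RNA and 489, 505 and 464 CPM in EpiLC total RNA, a change of 0.60 ± 0.12 (adjusted p = 0.000446), under the fold threshold, and its nascent change was 0.29 ± 0.18 (adjusted p = 0.186). Pfkm, the muscle form, lay at 78.7, 78.0 and 69.0 CPM against 77.5, 77.1 and 70.9 CPM, with a change of -0.005 ± 0.09 (adjusted p = 0.966). Its groups overlapped.

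The PFKFB genes, which set the level of fructose 2,6-bisphosphate, were all low in total RNA, at means of 3.965 to 19.4 CPM. Pfkfb3, at chr2:11471433-11554077, whose product has the highest kinase over phosphatase activity of the family, lay at 10.02, 11.7 and 4.42 CPM in ESC total RNA and 21.8, 19.4 and 16.9 CPM in EpiLC total RNA. Its 4sU level was 29.03, 31.85 and 10.85 CPM in ESCs and 50.4, 47.5 and 50.4 CPM in EpiLCs. The groups did not overlap, but ESC replicate 3 lay well under its fellows in both fractions. Pfkfb3 rose by 1.13 ± 0.31 in mRNA (adjusted p = 0.00536) and by 1.098 ± 0.322 in nascent RNA (adjusted p = 0.0106). Without both ESC replicate 3 libraries these changes were 0.82 (adjusted p = 3.88e-06) and 0.69 (adjusted p = 8.73e-05), both under the fold threshold.

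Pfkfb4 fell by 0.93 ± 0.23 (adjusted p = 0.00287), from 8.05, 7.45 and 6.59 CPM to 4.80, 3.22 and 3.88 CPM. Pfkfb1, the most abundant of these genes per length in total RNA, lay at 14.7, 12.3 and 12.8 CPM in ESC total RNA and 12.4, 13.1 and 13.3 CPM in EpiLC total RNA, with a change of -0.03 ± 0.12 (adjusted p = 0.83). Pfkfb2 had a change of -0.20 ± 0.18 (adjusted p = 0.339).

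**Figure D3:**
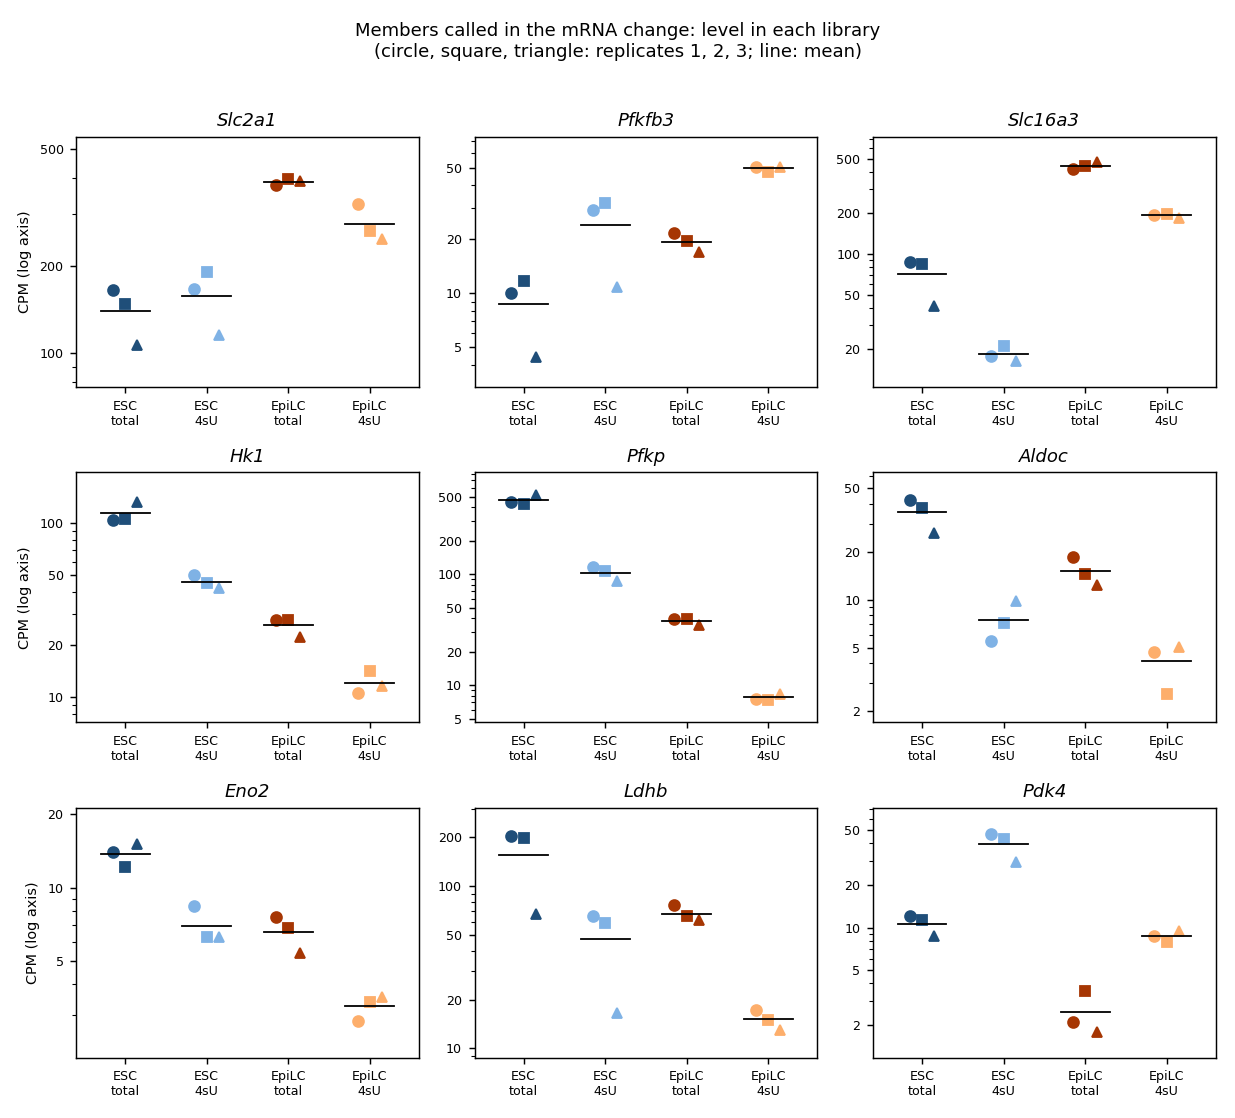
Level (CPM, log axis) of the 9 genes called in the mRNA change, in each of the 12 libraries, with markers for replicates 1 to 3 and a line for the mean. ESC replicate 3, the triangle, lies under the other ESC total RNA libraries for Slc2a1, Pfkfb3, Slc16a3, Aldoc, Pdk4 and Ldhb. For Ldhb it reaches the EpiLC libraries.

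Aldolase splits the hexose into trioses, and both its genes fell. Aldoa, at chr7:126795234-126808875, the gene of the list with the highest counted level per length in ESC total RNA, lay at 2135, 2048 and 1657 CPM in ESC total RNA and 1338, 1400 and 1291 CPM in EpiLC total RNA. Every EpiLC library was under every ESC one. Aldoa fell by 0.53 ± 0.09 in mRNA (adjusted p = 7.29e-05) and by 0.32 ± 0.10 in nascent RNA (adjusted p = 0.0197), the latter not past the threshold under 6 alternatives (adjusted p = 0.0518 to 0.354). Aldoc, the brain form, at chr11:78322968-78327781, fell from 42.1, 37.7 and 26.25 CPM to 18.4, 14.4 and 12.4 CPM, a change of -1.25 ± 0.19 (adjusted p = 3.97e-05), and its nascent change was -0.87 ± 0.47 (adjusted p = 0.134) on 12 to 40 reads per library.

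Of the next 3 genes, Gapdh alone passed adjusted p. Tpi1, the triose phosphate isomerase, lay at 482, 492 and 394 CPM in ESC total RNA and 454, 482 and 461 CPM in EpiLC total RNA, a change of 0.03 ± 0.09 (adjusted p = 0.772). Pgk1, the phosphoglycerate kinase that yields the first ATP of the pathway, had a change of 0.21 ± 0.12 (adjusted p = 0.152). Gapdh lay at 3.94, 4.68 and 9.54 CPM in ESC and 8.81, 9.29 and 7.16 CPM in EpiLC total RNA, and these ranges overlapped. Its change was 0.69 ± 0.26 (adjusted p = 0.0325), on few uniquely mapped reads. The adjusted p ranged from 3.35e-05 to 0.176 over the alternatives, and without both ESC replicate 3 libraries the change of Gapdh was 0.95 (adjusted p = 9.83e-05).

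Of the 6 genes tested from phosphoglycerate mutase to pyruvate kinase, 2 passed adjusted p: Eno2 in both fractions and Eno1 in nascent RNA. Eno2, the neuronal enolase, at chr6:124760055-124769673, lay at 14.02, 12.1 and 15.04 CPM in ESC total RNA and 7.59, 6.82 and 5.37 CPM in EpiLC total RNA. It fell by 1.05 ± 0.15 in mRNA (adjusted p = 3.0e-05) and by 1.07 ± 0.30 in nascent RNA (adjusted p = 0.00855). Its groups did not overlap, and its size sat at the fold threshold, with -0.99 when both ESC replicate 3 libraries or ESC total replicate 3 alone was left out, and -0.91 without EpiLC total replicate 3.

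Eno1, the widely expressed enolase, at chr4:150236952-150248879, differed between the fractions. With 72.2% of its windows shared with other genes, its counts rest on the unique part of its transcript. Its 4sU level rose from 94.7, 121 and 70.8 CPM to 196, 188 and 178 CPM, a nascent change of 0.99 ± 0.21 (adjusted p = 0.0011), while its total RNA level was 405, 411 and 244 CPM in ESCs and 357, 358 and 362 CPM in EpiLCs. In total RNA ESC replicates 1 and 2 lay above the EpiLC libraries and replicate 3 below them, and the mRNA change was 0.05 ± 0.17 (adjusted p = 0.815). The stability change was -0.94 ± 0.27 (adjusted p = 0.06). Without both ESC replicate 3 libraries Eno1 had an mRNA change of -0.19 (adjusted p = 0.00847) and a stability change of -0.99 (adjusted p = 5.4e-06).

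Pkm, whose product makes pyruvate and the second ATP, lay at 2280, 2295 and 1755 CPM in ESC total RNA and 2136, 2288 and 2219 CPM in EpiLC total RNA, a change of 0.08 ± 0.11 (adjusted p = 0.549). The counts are per gene, so the M1 and M2 splice forms are not told apart. Eno3, the muscle enolase, had a change of 0.03 ± 0.135 (adjusted p = 0.879), Pgam1 of -0.245 ± 0.108 (adjusted p = 0.0601) and Bpgm, which makes 2,3-bisphosphoglycerate, of 0.12 ± 0.11 (adjusted p = 0.318). Without both ESC replicate 3 libraries Pgam1 had an mRNA change of -0.29 (adjusted p = 0.0104) and a stability change of -0.69 (adjusted p = 0.047).

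Lactate handling held the largest rise of the list. Slc16a3, at chr11:120948480-120960868, encodes MCT4, a lactate exporter typical of glycolytic cells. It lay at 87.7, 84.6 and 41.3 CPM in ESC total RNA and 422, 442 and 470 CPM in EpiLC total RNA, and at 17.99, 21.3 and 16.3 CPM in ESC 4sU against 195, 198 and 183 CPM in EpiLC 4sU RNA. No ESC library came near an EpiLC library in either fraction. Slc16a3 rose by 2.69 ± 0.19 in mRNA (adjusted p = 1.58e-08), or 6.46-fold, and by 3.36 ± 0.30 in nascent RNA (adjusted p = 6.02e-07), or 10.2-fold. Its mRNA change without both ESC replicate 3 libraries was 2.37. Slc16a1, which encodes MCT1, a transporter that carries lactate and pyruvate in either direction, lay at 426, 418 and 353 CPM in ESC total RNA and 413, 461 and 444 CPM in EpiLC total RNA, with a change of 0.14 ± 0.09 (adjusted p = 0.193).

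The 2 lactate dehydrogenase genes differed. Ldha, whose subunit favours the making of lactate, was the most abundant lactate gene at 1171, 1235 and 942 CPM in ESC total RNA and 1123, 1268 and 1207 CPM in EpiLC total RNA, with a change of 0.11 ± 0.09 (adjusted p = 0.322) and overlapping groups. Ldhb, whose subunit favours the oxidation of lactate, at chr6:142490249-142507957, lay at 204, 199 and 67.4 CPM in ESC total RNA and 76.4, 65.2 and 61.5 CPM in EpiLC total RNA. ESC replicate 3 thus lay among the EpiLC values, as it did in 4sU RNA, where Ldhb was at 65.2, 59.4 and 16.5 CPM in ESCs and 17.2, 15.05 and 13.05 CPM in EpiLCs. Ldhb fell by 1.09 ± 0.38 in mRNA (adjusted p = 0.0209), and its nascent change was -1.49 ± 0.70 (adjusted p = 0.0855). Without both ESC replicate 3 libraries these values were -1.58 (adjusted p = 3.43e-13) and -2.03 (adjusted p = 2.03e-09). The mRNA change lost its call when ESC total replicate 1 or 2, or EpiLC total replicate 2 or 3, was left out (adjusted p = 0.0576 to 0.0942).

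At the entry to mitochondrial oxidation, both measured subunits of the E1 enzyme of pyruvate dehydrogenase fell. Pdha1, at chrX:160122209-160138413, lay at 762, 746 and 670 CPM in ESC total RNA and 442, 399 and 388 CPM in EpiLC total RNA, and fell by 0.83 ± 0.09 in mRNA (adjusted p = 1.24e-06) and by 0.43 ± 0.11 in nascent RNA (adjusted p = 0.00458). Pdhb, at chr14:8165991-8172992, lay at 109, 111 and 109 CPM against 73.9, 82.5 and 74.3 CPM, and fell by 0.51 ± 0.07 in mRNA (adjusted p = 2.62e-05) and by 0.51 ± 0.10 in nascent RNA (adjusted p = 0.000768). Neither reached the fold threshold, and in neither did the groups overlap.

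Of the kinases that inactivate this complex, only Pdk4 was called in the mRNA change. Pdk4, at chr6:5483351-5496309, the form induced by fasting, lay at 12.1, 11.3 and 8.65 CPM in ESC total RNA and 2.12, 3.51 and 1.79 CPM in EpiLC total RNA, and at 47.0, 42.9 and 29.3 CPM in ESC 4sU against 8.72, 7.84 and 9.49 CPM in EpiLC 4sU RNA. It fell by 2.15 ± 0.30 in mRNA (adjusted p = 2.01e-05) and by 2.20 ± 0.26 in nascent RNA (adjusted p = 7.62e-06). Pdk1, the hypoxia-inducible form, lay at 208, 218 and 83.5 CPM in ESC total RNA and 183, 193 and 191 CPM in EpiLC total RNA, so that ESC replicate 3 alone fell below the EpiLC libraries. Its change was 0.25 ± 0.31 (adjusted p = 0.498), and it turned to -0.17 (adjusted p = 0.0221) without both ESC replicate 3 libraries. The nascent change of Pdk1 was -0.10 (adjusted p = 0.873) with all libraries and -0.57 (adjusted p = 0.000384) without both ESC replicate 3 libraries. Pdk3 had a change of 0.18 ± 0.12 (adjusted p = 0.187). Pdk2 was low, with 15 to 37 reads per total RNA library, and its mRNA change was -0.06 ± 0.295 (adjusted p = 0.877). Its nascent change of -1.11 ± 0.38 (adjusted p = 0.0258) rested on 5 to 29 reads per 4sU library, and Pdk2 reached 3 CPM only in the 3 ESC 4sU libraries, where it was highest, and in 1 EpiLC library, so it passed the filter only through ESCs.

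Isoenzymes were compared within each library as the log2 ratio of reads per kilobase of exon, which does not depend on library scaling. There were 10 pairs with both genes past the filter. With 3 libraries against 3, an exact permutation test cannot go below p = 0.1, so values and overlap are given with no test. The Pfkp over Pfkl ratio was 0.06, 0.11 and 0.82 in ESC total RNA and -3.82, -3.89 and -3.95 in EpiLC total RNA. Per length, Pfkp made up 49.2% ± 6.58 of the 3 phosphofructokinase genes in ESC total RNA and 5.36% ± 0.207 in EpiLC total RNA (SD, n = 3), while Pfkl made up 39.2% ± 6.16 and 79.2% ± 0.434. The same order held in 4sU RNA, where Pfkp made up 58.9% ± 2.80 in ESCs and 8.77% ± 0.71 in EpiLCs.

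For the lactate transporters, the Slc16a3 over Slc16a1 ratio had a mean of -2.57 ± 0.46 in ESC and 0.01 ± 0.07 in EpiLC total RNA (SD, n = 3), so that the pair stood at nearly equal levels per length in EpiLCs. The share of Slc16a3 in the pair was 14.7% ± 3.74 in ESC total RNA and 50.2% ± 1.25 in EpiLC total RNA, and 7.77% ± 0.946 and 43.0% ± 1.83 in 4sU RNA. Slc2a1 made up 7.35% ± 0.635 of the measured glucose transporter pair in ESC and 16.9% ± 0.979 in EpiLC total RNA. Hk1 made up 19.7% ± 2.76 of the hexokinase pair in ESC and 7.89% ± 0.850 in EpiLC total RNA, so Hk2 was the main hexokinase mRNA of both states.

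The Ldhb over Ldha ratio had a mean of -2.45 ± 0.71 in ESC and -3.61 ± 0.24 in EpiLC total RNA. Ldhb made up 20.2%, 18.9% and 9.43% of the pair in ESC replicates 1 to 3 and 8.999%, 6.95% and 6.90% in EpiLCs, so the groups did not overlap, by a narrow margin at ESC replicate 3. Both genes share over 15% of their windows with copies elsewhere, and their levels are floors. For the 4 kinase genes, Pdk1 and Pdk3 together held nearly all total RNA, Pdk1 with 49.4% ± 9.58 in ESCs and 53.0% ± 0.479 in EpiLCs. In ESC 4sU RNA Pdk4 held 38.9% ± 2.82 of the kinase level, against 4.96% ± 0.860 in ESC total RNA.

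**Figure D4:**
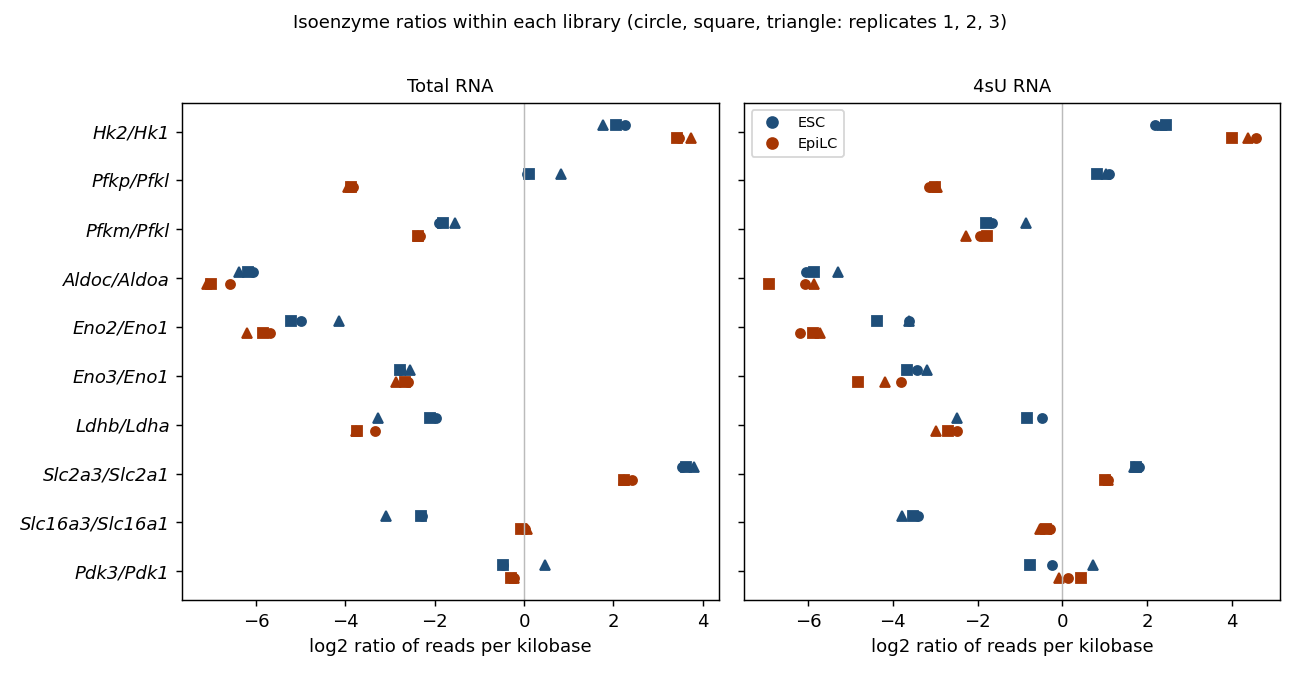
log2 ratio of reads per kilobase of exon for 10 isoenzyme pairs in each library (left, total RNA, right, 4sU RNA), blue for ESC and orange for EpiLC. The Pfkp/Pfkl points lie at 0.06 to 0.82 in ESC and -3.95 to -3.82 in EpiLC total RNA, and the Slc16a3/Slc16a1 points near 0 in EpiLC total RNA.

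The mRNA stability change was the interaction of cell type and fraction, the mRNA change minus the nascent change. No gene of the list was called by limma-voom with the fold threshold, against 1.24% of all genes higher and 0.305% lower in EpiLCs. By adjusted p alone 1 gene, Hk2, was lower, against 1.88%, and none was higher, against 2.72%. At an unadjusted p under 0.05 there were 2 higher and 4 lower genes, against 15.1% and 7.84% of all genes. The counts were 2 and 5 with edgeR, against 15.2% and 7.79%, and 1 and 7 with DESeq2, against 9.9% and 11.2%. Pdk2, which passed the expression filter only through ESCs, is 1 of the 2 higher genes with limma-voom and with edgeR, and is not counted with DESeq2. By adjusted p alone edgeR gave Hk2, and DESeq2 gave Eno1, Hk2 and Pdha1, of which Eno1 also passed the fold threshold, at -1.04 (adjusted p = 0.00464). The median stability change was -0.07 for these genes and 0.11 for all genes.

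The labels say that each extract was divided, but not that libraries of one number came from one extract. If they did, each culture can be a term of the model, as a replicate block, and more genes passed adjusted p: 1 was higher, against 7.31% of all genes, and 4 were lower, against 4.44%. With this term the stability change was 0.65 for Slc2a1 (adjusted p = 0.00968), -0.95 for Eno1 (adjusted p = 0.000527), -0.74 for Slc16a3 (adjusted p = 0.0181) and -0.40 for Pdha1 (adjusted p = 0.0317), and Hk2 passed as before. None reached the fold threshold.

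Without both ESC replicate 3 libraries, which leaves 2 ESC libraries per fraction, 2 genes had a higher and 6 a lower stability by adjusted p alone, against 12.7% and 6.99% of all genes in that fit. Slc16a3, for which the nascent rise was the larger, had a stability change of -0.66 ± 0.355 (adjusted p = 0.286) with all libraries and -0.91 (adjusted p = 0.000214) without them. Slc2a1, for which the mRNA rise was the larger, had 0.65 ± 0.24 (adjusted p = 0.127) and 0.67 (adjusted p = 0.0011). Hk2 passed in both, at -0.68 and -0.65.

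The level of total over nascent RNA, the log2 of total over 4sU CPM of same-numbered libraries, here taken to be one culture, is a relative measure of stability within a cell type. Its median over the 33 genes was 1.80 in ESCs and 1.21 in EpiLCs, against 0.06 and 0.17 over all 14731 genes, and 27 of the 33 genes were above the median of all genes in each cell type. These medians fell on different genes, Ldhb in ESCs and Slc16a3 in EpiLCs, and the median stability change per gene was -0.07. Ldha was the highest in ESCs, at 2.98 ± 0.17 against 3.04 ± 0.10 in EpiLCs, and Pfkl the highest in EpiLCs, at 3.11 ± 0.13 against 2.82 ± 0.14 in ESCs (SD, n = 3). Pkm lay at 2.89 ± 0.07 and 2.67 ± 0.06, Tpi1 at 2.84 ± 0.09 and 2.69 ± 0.01, and Aldoa at 2.71 ± 0.21 and 2.497 ± 0.042. All of these 5 genes lay at percentile 98.2 of all genes or above in both cell types.

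Pdk4, Pfkfb3 and Gapdh lay at the other end. Pdk4 was at -1.87 ± 0.11 in ESCs and -1.82 ± 0.62 in EpiLCs, the 16.5th and 14.4th percentiles of all genes, and Pfkfb3 at -1.41 ± 0.13 and -1.36 ± 0.19, the 20.8th and 18.7th. The other regulators were mixed. Pdk2 was low in ESCs, at -1.08 ± 0.55, and lay at -0.04 ± 0.66 in EpiLCs, on few reads. Pfkfb2, at -0.08 and 0.09, and Pfkfb4, at 0.28 and 0.004, lay near the medians of all genes. Pfkfb1, at 1.29 and 1.21, and Pdk3, at 1.88 and 1.82, lay above them. So did Pdk1, at 1.94 ± 0.18 and 2.22 ± 0.28. Gapdh was the lowest, at -2.67 ± 0.42 and -2.56 ± 0.21, with 36.8 ± 7.47 CPM in ESC 4sU RNA and 6.05 ± 3.04 CPM in ESC total RNA. With 82.5% of its windows shared with copies, this ratio rests on a small part of the transcript. Hk2 lay at 1.12, 0.84 and 1.07 in ESC cultures 1 to 3 and 0.28, 0.39 and 0.30 in EpiLC cultures, and Eno1 at 2.10, 1.77 and 1.79 against 0.87, 0.93 and 1.02. For both genes the lowest ESC culture was above the highest EpiLC culture, and ESC culture 3 lay between the other ESC cultures. With 72.2% of its windows shared, the Eno1 ratio too rests on the unique part of its transcript.

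**Figure D5:**
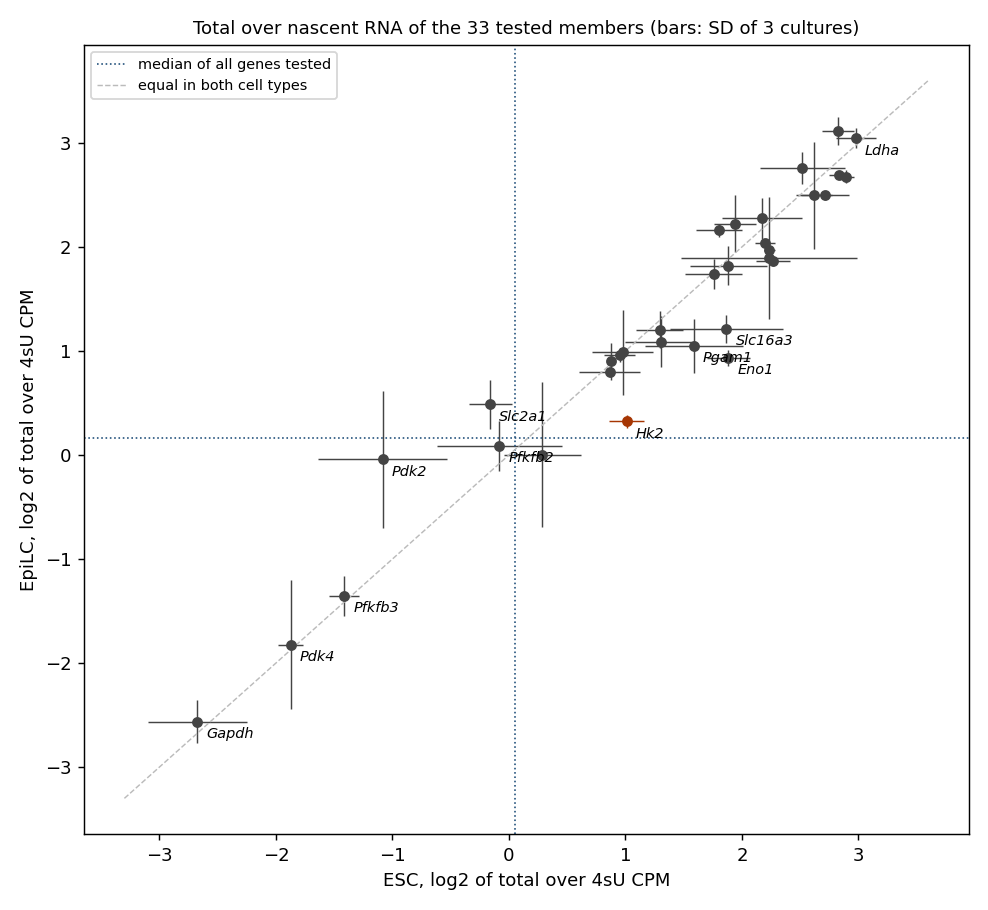
log2 of total over 4sU CPM in EpiLCs (y axis) against ESCs (x axis) for the 33 tested genes, as the mean of 3 cultures with bars for the SD, dotted lines for the medians of all genes at 0.06 and 0.17 and a dashed line for equal values. Hk2, in orange, and Eno1 lie below the dashed line, and Pdk4, Pfkfb3 and Gapdh lie at the low end in both cell types.

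By level per length, 25 of the 33 genes were above the median of all genes tested in ESC total RNA and 23 in EpiLC total RNA, and 9 and 12 were above the 95th percentile. In 4sU RNA 19 genes were above the median in each cell type, and 3 in ESCs and 5 in EpiLCs were above the 95th percentile. Slc16a3 moved from percentile 65.8 in ESC to 95.1 in EpiLC total RNA, and Pfkp from 94.8 to 53.2.

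A list of 45 further genes of the pathway, among them sugar phosphate, pyruvate and pentose phosphate genes, was counted beside these. Of the 28 that were tested, 1 was called higher in the mRNA change, against 16.3% of all genes, and 7 were called lower, against 11.2%. By adjusted p alone 2 were higher, or 7.14%, against 31.4%, and 17 were lower, or 60.7%, against 32.1%. The share lower was thus above that of all genes with and without the fold threshold, and the share higher was below it. The median change was -0.58 against 0.02 for all genes. These counts include 3 genes that passed the expression filter through one cell type alone, Ldhd and Mpc1 in ESCs and Slc16a7 in EpiLCs. The 3 called genes of largest fitted change were Slc16a7, Ldhd and Tigar, and for the first 2 of them the values are given as a description. Slc16a7, the 1 gene called higher, which encodes the high-affinity pyruvate transporter MCT2, had 0 to 3 reads in the ESC total RNA libraries and 25 in each EpiLC one, too few in ESCs for a fold change. Ldhd, the D-lactate dehydrogenase, had a mean of 4.77 ± 1.25 CPM in ESC total RNA and 0.955 ± 0.324 CPM in EpiLC total RNA. Tigar, which removes fructose 2,6-bisphosphate, fell by 2.00 ± 0.09 in mRNA (adjusted p = 2.83e-10), from 165 ± 4.90 to 41.2 ± 2.74 CPM (SD, n = 3), and by 2.20 ± 0.12 in nascent RNA.

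Many of the 34 genes are known targets of the hypoxia-inducible factors, and 24 other genes of that response were counted. Of these, 23 symbols were in the annotation and 21 were tested, of which 1 was called higher and 3 lower in the mRNA change, or 4.76% and 14.3%, against 16.3% and 11.2% of all genes. By adjusted p alone 4 were higher and 7 lower, or 19.05% and 33.3%, against 31.4% and 32.1%, so the share lower was near that of all genes. Hif1a rose by 0.32 ± 0.11 (adjusted p = 0.0164), while Epas1, which encodes HIF-2α, fell by 2.00 ± 0.22 (adjusted p = 1.75e-06) from a mean of 21.1 to 4.95 CPM, and their partner Arnt fell by 0.63 ± 0.09 (adjusted p = 3.2e-05). Of the genes that mark HIF for destruction, Egln1 rose by 0.73 ± 0.10 (adjusted p = 1.44e-05) and Vhl fell by 0.40 ± 0.10 (adjusted p = 0.00194). The values of Egln2 and Egln3, also on the list, are not given here.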

How the data were processed

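Raw read counts per gene were used as deposited. Per the labels and the study's methods, the authors trimmed single-end 50-base reads with cutadapt 1.14, mapped them to mm10 with STAR 2.5.3a keeping uniquely mapped reads only, and counted stranded exon reads with featureCounts 1.5.3 over GENCODE M14 genes without rRNA. A read that fits several copies of a gene was therefore lost, which lowers the counts of genes with processed copies. Spike-in entries held 0 reads and were left out.

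Genes reaching 3 CPM in 3 or more libraries were kept, and their counts were scaled by TMM (edgeR 4.0.16) and fitted with limma-voom (limma 3.58.1, R 4.3.3), all 12 libraries and 4 groups in one fit, with Benjamini-Hochberg adjustment over all 14731 genes. CPM values are TMM-scaled, and errors of fold changes are moderated standard errors. Log2 ratios used a prior count of 0.5 reads between isoenzymes and of 0.1 CPM between total and 4sU levels. The fit was tested on simulated counts. Alternatives covered scaling, filter, edgeR, DESeq2 1.42.0, sample weights, replicate terms and left-out libraries. Per-library values are given for genes called in the mRNA or stability change and for the most abundant gene of each role. The members and lists were chosen with earlier results of these data known. Intervals and tests cover these samples only. One shared sequence window is not reported here.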

Additional observations from a re-analysis of the deposited data

Results flagged for a closer look

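One result stood out because a test of the difference between cell types passed: the stability change of Hk2 was -0.68 ± 0.11 (limma-voom, adjusted p = 0.00503), with 577, 513 and 523 CPM in ESC and 355, 345 and 347 CPM in EpiLC total RNA and overlapping 4sU levels. It kept its direction and its side of the threshold under all 23 alternatives, from -0.78 to -0.62, with adjusted p from 1.99e-09 to 0.0249. The fold threshold was not reached. Hk2 was the 1 gene of 33 past adjusted p, or 3.03%, against 1.88% of all genes lower and 2.72% higher. Groups of 3 are too small for the gap test of single outlying samples. ESC replicate 3, which stood apart on these genes, was examined by leaving it out, which gave -0.65 for Hk2.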

How the results depend on the processing

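Of the 17 genes past adjusted p in the mRNA change, 15 stayed past it under all alternatives, and the exceptions were Gapdh and Ldhb. Of 12 in the nascent change 9 did, the exceptions being Aldoa, Pdha1 and Pdk2, and Hk2 did in the stability change. Dropping the fold threshold gave 5 genes higher and 12 lower in mRNA, against 31.4% and 32.1% of all genes. It gave 4 and 8 in nascent RNA, against 23.7% and 28.8%, and 1 lower in stability, against 1.88%. Leaving out each library in turn gave 2 to 3 higher and 4 to 7 lower in mRNA, 1 to 3 and 3 to 6 in nascent RNA, and 0 and 0 to 1 in stability. Over all 14731 genes these ranges were 2241 to 2562 higher and 1616 to 1689 lower in mRNA. In nascent RNA they were 1696 to 1864 and 1829 to 2053, and in stability 56 to 573 and 20 to 89. The 1 stability call among the listed genes was Eno1, also under median-of-ratios scaling and under DESeq2 (1 lower each). Sample quality weights, and leaving out both ESC replicate 3 libraries, each gave 1 gene higher in nascent RNA, Pfkfb3 being lost.

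Reversals past a threshold came only from leaving out both ESC replicate 3 libraries: Eno1 mRNA to -0.19 and Pdk1 mRNA to -0.17. Leaving out 1 library at a time, the Eno3 over Eno1 ratio difference ranged from -0.063 to 0.0669, above 0 without ESC total replicate 3 or EpiLC total replicate 3 (0.0632), and Pdk3 over Pdk1 from -0.2435 to 0.2293, above 0 without ESC total replicate 3. The cause was not tested.

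The numbers were not taken to pair ESCs with EpiLCs. Pairing of 4sU with total libraries was an assumption, used for the ratio per culture and not in the stability test. For each library, the deviation of its log2 CPM from the group mean was taken for every gene tested. Over genes, these deviations had correlations of -0.104 to -0.010 between same-numbered ESC and EpiLC total RNA libraries, and -0.048 to -0.025 in 4sU RNA. Between 4sU and total libraries of one number they had 0.194 to 0.437 in ESCs and 0.021 to 0.082 in EpiLCs. These are not correlations of the expression levels. With a replicate block on the number, 1 gene was called higher in nascent RNA, with Pfkfb3 at 1.00, and no other count of calls with the fold threshold moved by over 1.5 times. By adjusted p alone, stability then held 1 gene higher (Slc2a1, 0.65), against 4.05% of all genes, and 2 lower (Hk2 and Eno1, -0.93), against 2.56%. With a block on each culture the counts were 1 and 4, against 7.31% and 4.44%. 4sU libraries held fewer reads than total RNA libraries, so nascent and stability changes of low genes are the least precise.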
